A study of Arabidopsis thaliana with 8 samples.

Results

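Mature lateral nectaries (MLN) of Arabidopsis thaliana ecotype Columbia-0 were compared with immature lateral nectaries (ILN), with 3 arrays of each chosen by their sample titles, 6 of the 8 arrays of the study. MLN were taken from flowers of stages 14 to 15, after anthesis, when these nectaries secrete, and ILN from flowers of stages 11 to 12, before anthesis, when they do not yet secrete. Neither group carried a transgene or received a treatment, and the plants of both were 30 to 35 days old under 16 h of light and 8 h of dark. Each array was hybridized with amplified RNA from 1 pool of 250 to 300 nectaries dissected by hand 4 to 8 h after dawn, started from 500 ng of total RNA, and the pools came from different plants. The remaining 2 arrays, of mature median nectaries (MMN), entered the statistics through the estimate of the spread only.

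Nectaries are small glands at the base of the flower that release a sugar solution to pollinators. Lateral nectaries, which sit at the base of the short stamens, produce nearly all nectar of the Arabidopsis flower. Sugar reaches them through the phloem, is stored as starch before anthesis, is made into sucrose at the time of secretion, leaves the cells through a transporter of the SWEET family and is split by an invertase in the cell wall. The comparison addresses which functions differ between the pre-secretory gland and the secreting one.

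Values are probe signal intensities on a linear scale, set by the authors to a median of 100 on every array, and 22746 probe sets were tested after 64 control probe sets had been left out. Log2 signals correlated at 0.976 to 0.982 among MLN arrays, 0.963 to 0.988 among ILN arrays and 0.898 to 0.942 between the groups. ILN replicate 1 lay nearest to MLN of the 3 ILN arrays for 56.5% of the probe sets called below. The 3′/5′ ratio of the control transcripts, a sign of RNA quality, was 2.08 to 2.39 in MLN and 2.65 to 3.60 in ILN for the first ubiquitin pair, and the ranges overlapped for the second ubiquitin pair (1.29 to 1.83 in MLN and 1.68 to 2.82 in ILN). They also overlapped for both actin pairs, at 7.08 to 8.09 in MLN and 8.00 to 13.9 in ILN for one and 8.16 to 16.8 in MLN and 7.98 to 31.1 in ILN for the other. For the GAPDH pairs the ratios were 2.79 to 5.73 and 1.85 to 3.24 in MLN, and 1.76 to 6.93 and 1.58 to 2.70 in ILN. The part of RNA quality in the results was not tested. The nectary identity of the tissue was checked with CRC, the YABBY regulator required for nectaries to form, which had a signal of 8916, 9912 and 16412 in MLN, against 10098, 10705 and 10565 in ILN. Of the other nectary genes, YAB5 and PIN6 were not called (log2 difference 0.72, limma adjusted p = 0.0679 and 0.77, limma adjusted p = 0.0689). Both were called with the replicate number as a block, without ILN replicate 1 or among brighter probe sets only. Markers were matched by gene name, and many probe sets had no name, so an unmatched marker may still be on the array. Of 39 listed tapetum and anther markers 3 were matched. Of these, 2 stayed under the array median in both groups, and the third was SWEET8, described below. The summed signal of the 3 was 159.7 to 194 in MLN and 771 to 986 in ILN. In the other marker lists, 2 pollen, 5 carpel and ovule, 4 petal and stamen identity, 3 stomatal, 1 phloem and 1 xylem genes were matched. No sepal and leaf or epidermis marker was matched. Of these, SEP1, ANX2, SPCH, OPS and IRX3 were called higher in MLN and none lower, and all but SEP1 stayed under the array median on every lateral nectary array. The summed signal of the petal and stamen genes was 1812 to 2538 in MLN and 1165 to 1449 in ILN. The part of these cell types in the results was not tested. In whole nectaries, fewer cells of a type and less RNA per cell cannot be told apart.

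Between MLN and ILN, 5357 probe sets differed, 23.6% of all tested, by limma with an adjusted p under 0.05. Of these, 2738 were higher in MLN (12.0% of all tested) and 2619 lower (11.5%). At 2-fold or more 2717 (11.9%) differed, 1114 higher (4.90%) and 1603 lower (7.05%), and at 5-fold or more 393 (1.73%) differed, 197 higher (0.866%) and 196 lower (0.862%). Among genes with a name, the background for the gene groups, 11.3% were higher and 11.1% lower, and among those with a mean signal above the median of all probe sets, called brighter here, 16.6% were higher and 17.8% lower. All 3 MLN arrays lay above all 3 ILN arrays for 25.8% of probe sets and below them for 15.2%. The log2 differences of all probe sets, MLN minus ILN, had a median of 0.17, although the median signal of every array is the same, so that differences of this size are the middle of the distribution and not a rise. With each array centred on the median of its deviations from the probe set means, called centring here and chosen after seeing the data, the share higher among all calls was 35.3%, against 51.1% without it, and among calls at 2-fold or more it was 30.2%, against 41.0%. At 5-fold or more centring gave 169 higher and 253 lower.

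Rises and falls differed in size and in signal level. From 2-fold to under 5-fold there were 917 rises and 1407 falls, whereas from 10-fold to under 20-fold there were 36 rises and 26 falls, and at 20-fold or more 23 rises and 3 falls. In the dimmest decile of the probe sets by mean signal, 4.66% were higher and 0.923% lower. The share higher was greatest in the brightest decile, at 24.9%, where 16.0% were lower. The share lower peaked at 22.6% in the decile with mean signals of 169 to 288, where 12.5% were higher.

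**Figure D1:**
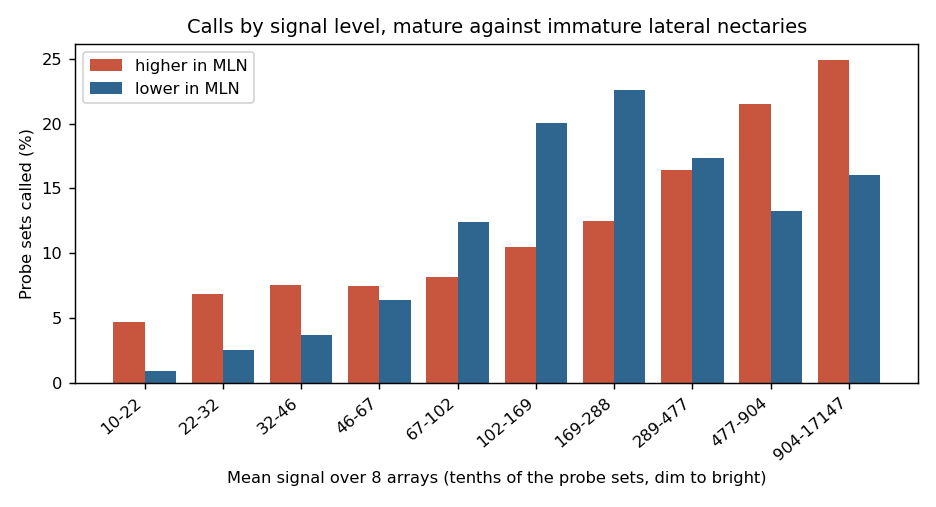
Share of probe sets called by limma (adjusted p under 0.05) in deciles of all probe sets ordered by mean signal over 8 arrays, dim on the left, with probe sets higher in MLN in red and lower in MLN in blue. Calls higher in MLN go up to 24.9% in the brightest decile, while calls lower in MLN peak at 22.6% in the middle of the range.

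Genes with a name were sorted by function into 106 groups, which together with the organelle genomes held 1317 genes, 206 of them higher and 205 lower in MLN. Only genes named by the platform or the gene annotation supplied with the study could be members, so a group may hold only part of its family. Among groups with 5 or more measured members, ribosomal proteins and DNA replication had the largest shares of falls, and carotenoid synthesis, autophagy, ethylene and RING finger proteins had the largest shares of rises. The bar chart of gene groups shows the main ones. Apart from NAC080 and NHL1, which were not run, every gene given below as called kept its call in each alternative fit that included it. The fit on brighter probe sets only did not include the dimmer genes. For every gene given below as called, the MLN and ILN arrays did not overlap. Genes named by rule that lost their call in 1 or more of these fits, such as psbA and atpH, are not described singly. A t-test of the type the study names was not among these fits and was not run on groups. The counts of groups often moved when 1 array was left out or with centring, as stated with each, and with centring 3 of 11 autophagy and 1 of 7 ethylene genes were higher.

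**Figure D2:**
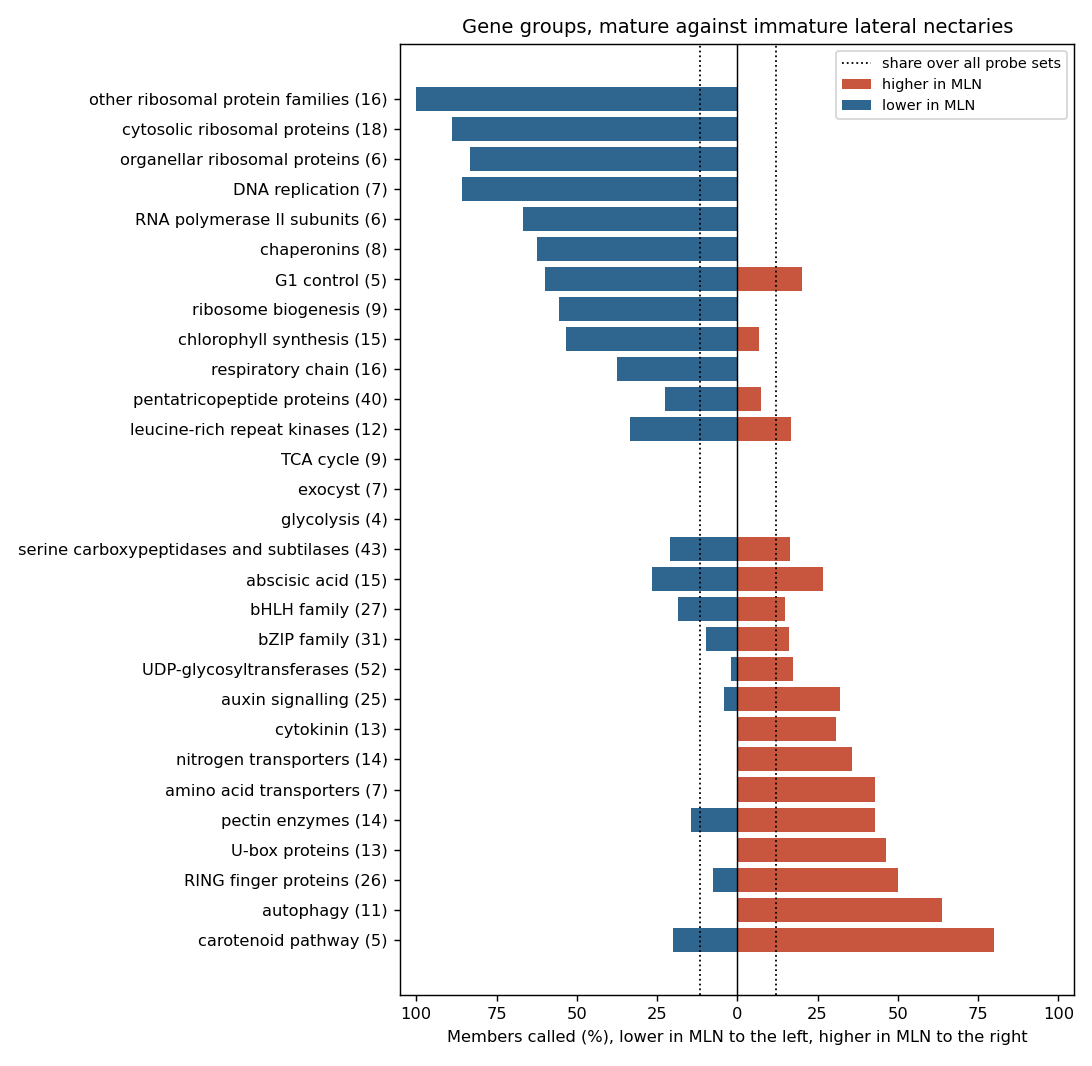
Share of the measured members called (limma adjusted p under 0.05) in 29 gene groups, lower in MLN to the left and higher in MLN to the right, with the number of measured members in brackets and the share over all probe sets dotted. All 16 members of the other ribosomal protein families were lower, and no member of the TCA cycle, exocyst and glycolysis groups was called.

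Genes of G1 control and DNA replication were called lower in MLN more often than higher. SIM, an inhibitor of cyclin-dependent kinases, had a signal of 107, 113 and 137 in MLN, against 1524, 1715 and 978 in ILN (log2 difference -3.53, standard error 0.24, limma adjusted p = 5.17e-06). CYCD3;2, a D-type cyclin that drives entry into the cycle, had 145, 124 and 138 in MLN, against 345, 621 and 1214 in ILN (log2 difference -2.24, standard error 0.36, limma adjusted p = 0.00104). For both genes every MLN array lay below every ILN array. Of 5 measured G1 genes 3 were lower and 1 higher, with a count of rises of 0 without MLN replicate 2, MLN replicate 3, ILN replicate 1 or ILN replicate 2 or with centring. Of 7 DNA replication genes 6 were lower and none higher, with a median log2 difference of -1.22, but the count was 3 without MLN replicate 1, MLN replicate 2 or ILN replicate 3. POLA3, a subunit of the primase that starts new strands, had 58.5, 59.5 and 48.7 in MLN, against 157, 158 and 207 in ILN (log2 difference -1.64, standard error 0.20, limma adjusted p = 0.000212). The histone gene HTB2, which encodes an H2B protein of chromatin, had 87.7, 66.0 and 121 in MLN, against 576, 840.2 and 968 in ILN (log2 difference -3.13, standard error 0.26, limma adjusted p = 1.94e-05), and HTB1 was also lower (-1.66, limma adjusted p = 0.00722), while the other 5 of 7 core histone genes were not called. Histone genes are close copies, so their probe sets may share signal. VIM1, which binds methylated cytosine and keeps DNA methylation in place, had 64.0, 71.0 and 50.6 in MLN, against 128, 309 and 436 in ILN (log2 difference -2.08, standard error 0.37, limma adjusted p = 0.00212). Genes of mitosis and cytokinesis were less uniform, with 2 of 13 higher and 4 lower, and a median of -0.13. ATMAP65-6, a microtubule-bundling protein, was lower (-1.84, limma adjusted p = 0.000263), and ATK4, a kinesin, was higher (1.08, limma adjusted p = 0.00767). The count of falls was 1 without MLN replicate 1 or ILN replicate 3, and the count of rises 1 without MLN replicate 2 or ILN replicate 2 or with centring.

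Ribosomal proteins showed the most uniform fall among the groups with 5 or more members. Of 40 nuclear genes for ribosomal proteins 37 were lower in MLN and none higher, with a median log2 difference of -1.83, and 35 of the falls were 2-fold or more. All 40 were among the brighter genes, of which 17.8% were lower. The median signal of the 40 was 241, 280.3 and 292 in MLN, against 693, 1212 and 1467 in ILN, so the lowest ILN array lay above the highest MLN array. With 1 array left out, 32 to 38 were lower, and 1 organellar member was higher without MLN replicate 1. By class, 16 of 18 proteins annotated to the cytosolic ribosome were lower (median -1.54), as were 5 of 6 annotated to organelles (median -1.66) and all 16 whose annotation names only the family (median -2.37). AT3G04920, which encodes the small subunit protein S24, had 135, 187 and 234 in MLN, against 876, 1524 and 2335 in ILN (log2 difference -3.01, standard error 0.32, limma adjusted p = 8.81e-05). AT4G17560, of the L19 family, had 56.5, 74.8 and 88.6 in MLN, against 588, 984 and 1070.2 in ILN (log2 difference -3.56, standard error 0.26, limma adjusted p = 7.48e-06). RPL9, of the plastid ribosome, had 99.9, 195 and 176 in MLN, against 615, 1241 and 1454 in ILN (log2 difference -2.78, standard error 0.33, limma adjusted p = 0.000172). In each of these the groups did not overlap. ILN replicate 1 had the lowest signal of the ILN arrays for all 3.

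**Figure D3:**
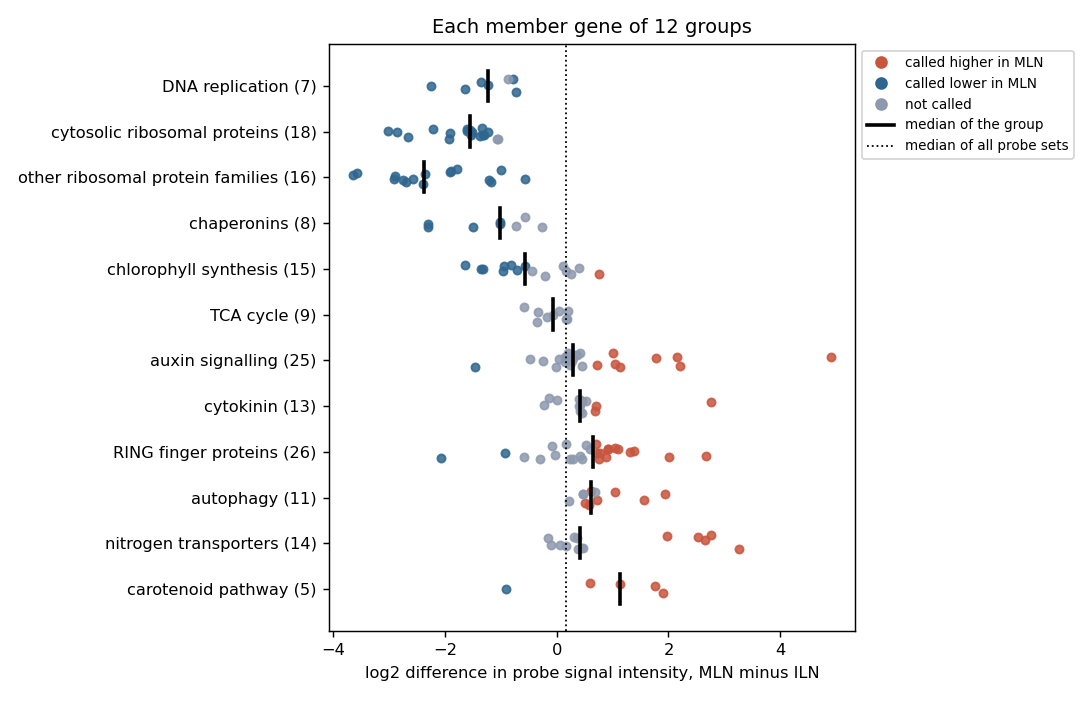
Log2 difference in probe signal intensity, MLN minus ILN, of every measured member of 12 gene groups, coloured by limma call, with the group median as a bar and the median difference of all probe sets dotted. Cytosolic and other ribosomal protein genes all lie below 0, the TCA cycle genes lie around 0, and 5 nitrogen transporter genes form a cluster between 1.98 and 3.26.

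Genes of other steps of gene expression were also called lower more often than higher. Of 9 genes of ribosome biogenesis 5 were lower (median -0.99), among them NUC-L1, a nucleolin of ribosomal RNA processing, with 185, 148 and 322 in MLN, against 673, 651 and 1559 in ILN (log2 difference -2.09, standard error 0.37, limma adjusted p = 0.00207). Of 6 subunits of RNA polymerase II 4 were lower, the count being 2 without ILN replicate 2. NRPB12 had 339, 441 and 552 in MLN, against 732, 934 and 1194 in ILN (log2 difference -1.10, standard error 0.23, limma adjusted p = 0.00572). Of 9 Sm and LSM proteins, which form the core of the spliceosome's particles and bind RNA ends, 3 were lower, or 5 without ILN replicate 1. AT4G30330, annotated as small nuclear ribonucleoprotein E, had 58.2, 33.9 and 81.6 in MLN, against 302, 325 and 485 in ILN (log2 difference -2.73, standard error 0.31, limma adjusted p = 0.000135), with all MLN arrays under the array median of 100. Among 7 translation factors 3 were lower and 2 higher, with a count of rises of 1 without MLN replicate 1, MLN replicate 2, MLN replicate 3, ILN replicate 2 or ILN replicate 3 or with centring. AT4G02930, annotated as elongation factor Tu, was lower by more than any other of the 7, with 157, 166 and 152 in MLN, against 871, 1021 and 1564 in ILN (log2 difference -2.82, standard error 0.22, limma adjusted p = 1.23e-05). Of 40 pentatricopeptide proteins, which process organelle RNA, 9 were lower and 3 higher, and the count of rises was 1 without MLN replicate 1 or ILN replicate 3. PPR336 had 38.6, 19.8 and 48.9 in MLN, against 139.7, 149 and 254 in ILN (log2 difference -2.38, standard error 0.33, limma adjusted p = 0.000441). Of 8 tRNA synthetases only AT1G17960, annotated as a threonyl-tRNA synthetase, was called, and it was higher (1.72, limma adjusted p = 0.00779), while the count of falls was 1 with the replicate number as a block or with centring and 2 without ILN replicate 1.

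Chaperonins, the folding chambers of plastids, mitochondria and cytosol, fell in 5 of 8 cases with none higher (median -1.02). Cpn60beta2, of the plastid chaperonin, had 162, 202 and 183 in MLN, against 551, 1009 and 1304 in ILN (log2 difference -2.31, standard error 0.30, limma adjusted p = 0.000283), and HSP60-2, of the mitochondrial one, had 251, 271 and 267 in MLN, against 811, 1486 and 1809 in ILN (log2 difference -2.30, standard error 0.26, limma adjusted p = 0.00014). The 22 heat shock proteins were divided, with 3 higher and 4 lower, and the count of falls was 2 without MLN replicate 1, MLN replicate 2, ILN replicate 2 or ILN replicate 3. Hop3, a cochaperone, had 239, 116 and 321 in MLN, against 38.8, 35.3 and 31.1 in ILN (log2 difference 2.57, standard error 0.32, limma adjusted p = 0.000225). In the respiratory chain and its carriers 6 of 16 genes were lower and none higher (median -0.47). AAC2, the mitochondrial ADP/ATP carrier, had 226, 124 and 269.5 in MLN, against 594, 848 and 1178 in ILN (log2 difference -2.10, standard error 0.31, limma adjusted p = 0.000646), and SDH7, a subunit of succinate dehydrogenase, had 837, 957 and 815 in MLN, against 2082, 1999 and 2143 in ILN (log2 difference -1.26, standard error 0.18, limma adjusted p = 0.000595). None of 9 TCA cycle genes and none of 4 glycolysis genes was called by limma, with log2 differences of -0.58 to 0.20 and -0.48 to 0.29. With 3 arrays a group, this does not show that they were unchanged, and the count of TCA cycle falls was 1 without MLN replicate 3 or with the replicate number as a block or with centring. With centring 1 of the 4 glycolysis genes was also called lower.

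Plastid functions went both ways. Of 15 genes of chlorophyll synthesis 8 were lower and 1 higher in MLN (median -0.56), and the count of falls was 5 without MLN replicate 1 or ILN replicate 3, the count of rises 0 without MLN replicate 2, MLN replicate 3 or ILN replicate 1 or with centring. HEMC, porphobilinogen deaminase, had 433, 342 and 504 in MLN, against 1016, 1072 and 1124 in ILN (log2 difference -1.35, standard error 0.19, limma adjusted p = 0.000445), and PORB, the light-dependent protochlorophyllide reductase, had 207, 241 and 636 in MLN, against 1051, 833 and 1083 in ILN (log2 difference -1.63, standard error 0.37, limma adjusted p = 0.00793). Of 3 genes of chlorophyll breakdown 2 were higher and 1 lower, with a count of rises of 1 without MLN replicate 1, MLN replicate 3, ILN replicate 1 or ILN replicate 2 or with centring. ACD1, pheophorbide a oxygenase, which opens the chlorophyll ring, had 2629, 2253 and 3449 in MLN, against 938, 1092 and 890.2 in ILN (log2 difference 1.50, standard error 0.19, limma adjusted p = 0.000281), and NOL, a chlorophyll b reductase, had 31.8, 37.2 and 39.8 in MLN, against 97.3, 201 and 284 in ILN (log2 difference -2.29, standard error 0.33, limma adjusted p = 0.000519). Of 5 carotenoid genes 4 were higher and 1 lower. ABA1, zeaxanthin epoxidase, which also leads to abscisic acid, had 6144, 4559 and 7578 in MLN, against 1317, 1949.6 and 1555 in ILN (log2 difference 1.91, standard error 0.22, limma adjusted p = 0.00015). PDS3, phytoene desaturase, had 2381, 1883 and 2424 in MLN, against 579, 745 and 639.9 in ILN (log2 difference 1.77, standard error 0.18, limma adjusted p = 6.88e-05). Both had MLN arrays wholly above the ILN arrays, whereas CYP97A3, a carotene hydroxylase, was lower (-0.90, limma adjusted p = 0.004). Nuclear genes of the photosystems and antennae had a median of -0.06 over 15 genes, with 1 higher and 2 lower, with a count of falls of 0 without MLN replicate 2, ILN replicate 2 or ILN replicate 3 and 1 without MLN replicate 3, and the count of rises 2 without MLN replicate 3. All but 2 of the 69 genes of the plastid genome itself were among the brighter genes, of which 16.6% were higher and 17.8% lower. Of the 69, 8 were higher and 1 lower (median 0.22, against 0.17 over all probe sets). The count of rises was 1 without ILN replicate 3, 3 without MLN replicate 2, 4 without MLN replicate 1 or with centring and 13 without ILN replicate 1 or with the replicate number as a block, and the count of falls 0 without MLN replicate 3 or ILN replicate 2 and 2 without ILN replicate 1. psbN, of photosystem II, had 1565, 1719.8 and 1736 in MLN, against 897, 1078 and 490.3 in ILN (log2 difference 1.10, standard error 0.27, limma adjusted p = 0.0117).

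Genes of sugar transport and sucrose metabolism had no common direction. Of 26 sugar transporters 3 were higher and 3 lower (median 0.31). Rises numbered 1 without MLN replicate 1, MLN replicate 2, ILN replicate 2 or ILN replicate 3 or with centring and 7 without ILN replicate 1. SWEET8, a transporter known from the tapetum, had 122, 149.9 and 151 in MLN, against 743, 735 and 954 in ILN (log2 difference -2.52, standard error 0.19, limma adjusted p = 9.61e-06). MSS1, also known as STP13, a hexose importer, had 2524, 1941 and 4693 in MLN, against 1201, 836 and 774 in ILN (log2 difference 1.63, standard error 0.30, limma adjusted p = 0.00244). SWEET9, which exports sucrose into nectar, gave 15056, 16748 and 14128 in MLN, against 16897, 14229 and 10236 in ILN, a log2 difference short of the threshold (0.18, limma adjusted p = 0.544). SPS2F, a sucrose phosphate synthase, had 3331, 3985 and 4002 in MLN, against 773, 1359 and 732 in ILN (log2 difference 2.04, standard error 0.24, limma adjusted p = 0.00015), and SUS1, a sucrose synthase, had 11955, 10891 and 17092 in MLN, against 6381, 5438 and 4585 in ILN (log2 difference 1.27, standard error 0.22, limma adjusted p = 0.00175). Its relative SUS6 was lower (-1.06, limma adjusted p = 0.0101), and the other 3 of 6 sucrose enzymes were not called. The cell wall invertase gene CWINV4 was named only by the study's lists and left out of the group. It had 13138, 11636 and 11761 in MLN, against 13661, 11359 and 11041 in ILN, and was not called (log2 difference 0.02, limma adjusted p = 0.925).

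Several transporters of nitrogen compounds were higher in MLN and none was called lower. Of 14 transporters of nitrate, peptides and related compounds 5 were higher, each by 2-fold or more, and the other 9 were not called. GTR2, which carries glucosinolates, the defence compounds of the mustard family, had 363, 377 and 523 in MLN, against 50.5, 51.1 and 31.6 in ILN (log2 difference 3.26, standard error 0.24, limma adjusted p = 8.42e-06). AT1G69860, annotated as a proton-dependent oligopeptide transporter, had 252, 161 and 463 in MLN, against 63.2, 36.0 and 26.3 in ILN (log2 difference 2.76, standard error 0.42, limma adjusted p = 0.000758). Both genes were under the array median on every ILN array and above it on every MLN array. Of 7 amino acid transporters 3 were higher and none lower (median 0.55), with UMAMIT11, an amino acid exporter, at 730.2, 434 and 490.0 in MLN, against 122, 190.3 and 138 in ILN (log2 difference 1.87, standard error 0.24, limma adjusted p = 0.000275). Among 29 ion channels and carriers 4 were higher and none lower, against 11.3% higher and 11.1% lower among all named genes. Rises numbered 2 without MLN replicate 1 or ILN replicate 3 or with centring, 8 with the replicate number as a block and 10 without ILN replicate 1, and the count of falls 1 without MLN replicate 1 or with centring. CAX3, a vacuolar calcium exchanger, had 663, 404 and 573 in MLN, against 215, 159 and 93.6 in ILN (log2 difference 1.86, standard error 0.29, limma adjusted p = 0.000975), and SULTR3;1, a sulfate transporter, was also higher (1.47, limma adjusted p = 0.00465). ACA4, a vacuolar calcium pump, ran the other way, with 63.2, 57.7 and 65.2 in MLN, against 271, 311 and 369 in ILN (log2 difference -2.34, standard error 0.20, limma adjusted p = 1.96e-05).

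**Figure D4:**
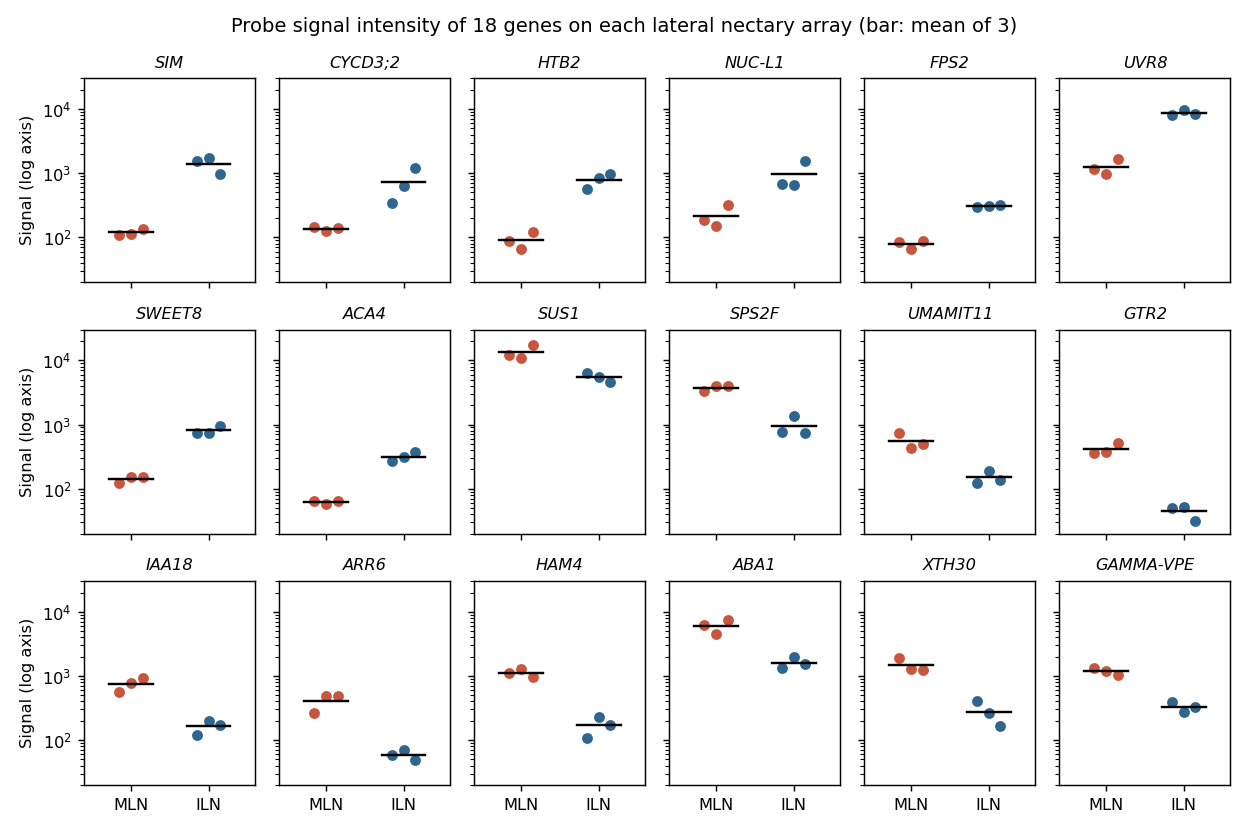
Probe signal intensity (log axis) of 18 genes named in the text on each lateral nectary array, MLN in red on the left and ILN in blue on the right of each panel, with the mean of 3 arrays as a bar. In every panel the arrays of the groups do not overlap. The first 8 genes, SIM to ACA4, are lower in MLN and the other 10, SUS1 to GAMMA-VPE, are higher.

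Of 7 exocyst subunits, which tether vesicles to the plasma membrane, none was called by limma in any of the fits with 1 array left out, and their log2 differences were -0.31 to 0.47. Of 13 SNAREs and their regulators 2 were higher and 1 lower, of 12 coat proteins 2 were higher, and of 7 Rab and related GTPases 3 were higher. The coat count of rises was 1 without MLN replicate 1, MLN replicate 2, ILN replicate 2 or ILN replicate 3 or with centring and 4 without ILN replicate 1, and the SNARE count of falls 0 without MLN replicate 1, MLN replicate 2, ILN replicate 2 or ILN replicate 3 and 2 with centring. SEC1B, a Sec1 protein that acts on SNAREs in membrane fusion, had 450.0, 458 and 512 in MLN, against 162, 146 and 105 in ILN (log2 difference 1.80, standard error 0.22, limma adjusted p = 0.000197). RAB1C, a GTPase of traffic from the ER to the Golgi, had 3907, 4899.6 and 3608 in MLN, against 1094, 2270.1 and 1880.4 in ILN (limma adjusted p = 0.00367). SYP21, a syntaxin of the prevacuolar compartment, was higher (1.03, limma adjusted p = 0.00365). Of 9 PRA1 proteins, which bind Rab GTPases, 3 were higher and none lower (or 5 without ILN replicate 1), with PRA8 at 516, 335 and 338 in MLN, against 203, 188 and 153 in ILN (log2 difference 1.11, standard error 0.23, limma adjusted p = 0.005). Of 17 proteins of vacuolar sorting and the ESCRT complexes, which sort membrane proteins for the vacuole, 6 were higher and 2 lower. The count of rises was 3 without ILN replicate 2 or ILN replicate 3 or with centring, and the count of falls 0 without MLN replicate 1, MLN replicate 2, ILN replicate 2 or ILN replicate 3 and 1 without MLN replicate 3. Traffic genes called higher included fusion, Rab and sorting proteins, while among all brighter genes 16.6% were higher and 17.8% lower. Whether the shares in these groups differed from those was not tested. VSR6, annotated as a vacuolar sorting receptor, was named only by the study's lists and left out of the group (log2 difference 5.25). SNF7.1, an ESCRT-III subunit, had 1065, 1277 and 1693 in MLN, against 632, 623 and 668 in ILN (log2 difference 1.04, standard error 0.19, limma adjusted p = 0.00264), and ELC, which binds ubiquitin in ESCRT-I, was higher (0.97, limma adjusted p = 0.00408). In the ER, 3 of 11 genes of folding and translocation were lower and 1 higher, with a count of rises of 2 without MLN replicate 3. CRT1b, a calreticulin, had 854, 953 and 839.8 in MLN, against 1497, 2161 and 2044 in ILN (log2 difference -1.09, standard error 0.22, limma adjusted p = 0.00411), whereas BZIP28, a membrane-bound transcription factor of ER stress, was higher (0.88, limma adjusted p = 0.00888).

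Ubiquitin ligases were called higher in MLN more often than lower. Of 26 RING finger proteins 13 were higher and 2 lower, with a median of 0.65, and 10 to 14 were higher with 1 array left out. All but 3 of the 26 were among the brighter genes, of which 16.6% were higher. AT3G06330 had 8051, 6238 and 5186 in MLN, against 1232, 1344 and 598 in ILN (log2 difference 2.68, standard error 0.29, limma adjusted p = 0.000106), and AT4G13100 had 3697, 4132 and 3586 in MLN, against 1638, 1097 and 474 in ILN (limma adjusted p = 0.00191). SHA1, needed by the shoot apical meristem, was lower (-0.93, limma adjusted p = 0.00835), as was VIM1 above. Of 13 U-box proteins 6 were higher and none lower (median 0.44), or 3 without ILN replicate 2 or with centring. PUB26 had 447, 485 and 457 in MLN, against 242, 232 and 179.6 in ILN (log2 difference 1.10, standard error 0.20, limma adjusted p = 0.00234). Of 14 F-box proteins 4 were higher and 1 lower, with a count of rises of 0 without MLN replicate 1, MLN replicate 3, ILN replicate 2 or ILN replicate 3 and 1 with centring, and the count of falls 0 without MLN replicate 1, MLN replicate 2, MLN replicate 3, ILN replicate 1 or ILN replicate 2. At other steps of the pathway there were 2 higher and 2 lower among 29 conjugating enzymes and ubiquitin-specific proteases and none of 5 proteasome subunits called by limma. Among the enzymes and proteases the count of rises was 1 without MLN replicate 3 or ILN replicate 2 or with centring and 4 without MLN replicate 2, and the count of falls 0 without MLN replicate 2 and 1 without MLN replicate 1, MLN replicate 3, ILN replicate 2 or ILN replicate 3. Of the proteasome subunits, the count of falls was 1 with the replicate number as a block and 2 without MLN replicate 3. UBC30, a conjugating enzyme, had 2734, 3270.5 and 2689 in MLN, against 1281, 1250.1 and 792 in ILN (log2 difference 1.42, standard error 0.22, limma adjusted p = 0.000804).

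Of 11 autophagy genes 7 were higher and none lower (median 0.61), but the count was 3 without MLN replicate 3, ILN replicate 2 or ILN replicate 3 or with centring and 4 without MLN replicate 1. Most of them belong to the ATG8 family, whose close copies may share signal. GAMMA-VPE, a vacuolar protease of the legumain type, had 1335, 1176 and 1029.9 in MLN, against 392, 269 and 331 in ILN (log2 difference 1.84, standard error 0.19, limma adjusted p = 8.09e-05) and was the only one called of 6 cysteine proteases, or one of 2 with the replicate number as a block and 3 without ILN replicate 1. Serine carboxypeptidases and subtilases, a group of 43 secreted or vacuolar proteases and acyltransferases, went both ways, with 7 higher and 9 lower. The count of rises was 4 without ILN replicate 3. scpl48 had 786, 999.9 and 588 in MLN, against 65.1, 48.9 and 63.6 in ILN (log2 difference 3.72, standard error 0.22, limma adjusted p = 2.45e-06), whereas SCPL34 had 51.6, 72.5 and 64.9 in MLN, against 729, 806 and 630.0 in ILN (log2 difference -3.53, standard error 0.20, limma adjusted p = 1.7e-06), so that these relatives moved in opposite directions. The subtilase gene AT5G45650 was lower (-3.64, limma adjusted p = 9.81e-05).

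Genes of auxin, cytokinin and ethylene were called higher more often than lower. Of 25 auxin genes 8 were higher and 1 lower, 7 of the rises 2-fold or more, with a count of rises of 5 without MLN replicate 1 or ILN replicate 3, and the count of falls 0 without MLN replicate 1, MLN replicate 2, ILN replicate 2 or ILN replicate 3. WES1, a GH3 enzyme that conjugates auxin to amino acids, had 2649.7, 2091 and 2299 in MLN, against 96.2, 76.9 and 63.9 in ILN (log2 difference 4.91, standard error 0.20, limma adjusted p = 2.31e-07). IAA18, a repressor of auxin response, had 557, 776 and 931 in MLN, against 119, 197 and 174 in ILN (log2 difference 2.21, standard error 0.26, limma adjusted p = 0.000156). Of 13 cytokinin genes 4 were higher and none lower, with a count of rises of 1 without MLN replicate 2, ILN replicate 2 or ILN replicate 3 or with centring, 2 without MLN replicate 1 and 8 without ILN replicate 1. ARR6, a response regulator induced by cytokinin, had 268, 479 and 488 in MLN, against 58.5, 71.0 and 48.9 in ILN (log2 difference 2.76, standard error 0.28, limma adjusted p = 7.1e-05). Of 7 ethylene genes 4 were higher and none lower, with a count of rises of 0 without ILN replicate 3, 1 without MLN replicate 3 or with centring and 2 without MLN replicate 1 or ILN replicate 2. JMT, which makes methyl jasmonate, had 14178, 12445 and 19214 in MLN, against 4749.7, 2689 and 3826 in ILN (log2 difference 2.04, standard error 0.32, limma adjusted p = 0.00104), and of 12 jasmonate genes 2 were higher and none lower, with a count of rises of 1 without MLN replicate 3, ILN replicate 1 or ILN replicate 2 or with centring, and of falls of 1 without ILN replicate 1. Of 7 salicylate and defence genes 3 were higher, among them AT5G62570, which encodes the calmodulin-binding protein CBP60a, with 726, 722 and 772 in MLN, against 313, 291 and 262 in ILN (log2 difference 1.36, standard error 0.17, limma adjusted p = 0.000203).

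Of 15 abscisic acid genes 4 were higher and 4 lower, with a count of falls of 2 without MLN replicate 2. COR47, a dehydrin of cold and drought, had 4397, 4425 and 8276 in MLN, against 394, 231 and 197 in ILN (log2 difference 4.38, standard error 0.30, limma adjusted p = 5.17e-06). RD22, induced by dehydration, had 139.8, 153 and 58.3 in MLN, against 376, 1540.0 and 2680.5 in ILN (log2 difference -3.43, standard error 0.59, limma adjusted p = 0.00169). Both are known as stress-induced genes, and the ILN values of RD22 varied widely. Of 5 brassinosteroid genes 2 were lower, among them BIM1, a partner of the brassinosteroid transcription factors (-1.17, limma adjusted p = 0.00134), with a count of falls of 1 without MLN replicate 1, MLN replicate 2, ILN replicate 1 or ILN replicate 2 and 4 with centring. Rises and falls were equal in number among 16 dehydrins, LEA proteins and metallothioneins, of which 4 were higher and 4 lower, with a count of falls of 2 without MLN replicate 1, MLN replicate 2 or ILN replicate 3. MT1C, a metallothionein, had 8762, 9404 and 5726 in MLN, against 641, 336 and 238 in ILN (log2 difference 4.39, standard error 0.32, limma adjusted p = 7.56e-06), and DI21, of the LEA proteins, had 74.5, 80.5 and 74.7 in MLN, against 509.7, 955 and 1545 in ILN (log2 difference -3.57, standard error 0.32, limma adjusted p = 3.1e-05). Light signalling genes also moved in both directions. UVR8, the UV-B receptor, had 1150.0, 969 and 1636 in MLN, against 8204, 9814 and 8445 in ILN (log2 difference -2.85, standard error 0.21, limma adjusted p = 7.48e-06), and HYH, a bZIP factor of light signalling, had 49.9, 104 and 96.8 in MLN, against 16.8, 26.8 and 24.4 in ILN (log2 difference 1.84, standard error 0.28, limma adjusted p = 0.000838).

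Transcription factor families held rises and falls, and whether their shares of calls differed was not tested. Among all named genes 11.3% were higher and 11.1% lower, and among brighter ones 16.6% and 17.8%. Of 47 MADS genes 41 were below the median signal of all probe sets, 2 were higher and none lower, with a count of rises of 7 without ILN replicate 1, and of falls of 1 without MLN replicate 3. AGL18 had 735, 733 and 766 in MLN, against 246, 391 and 362 in ILN (log2 difference 1.19, standard error 0.21, limma adjusted p = 0.00193), and SHP2, a MADS gene named by the study's own lists, had 7449, 7776 and 8088 in MLN, against 2448, 3700.4 and 3328 in ILN (log2 difference 1.32, standard error 0.20, limma adjusted p = 0.000758). Of 27 bHLH genes 4 were higher and 5 lower, of 31 bZIP genes 5 were higher and 3 lower (a count of rises of 9 without ILN replicate 1), and of 16 AP2/ERF genes 5 were higher and 2 lower. The AP2/ERF count of rises was 2 without ILN replicate 3 or with centring and 3 without MLN replicate 2 or ILN replicate 2, and the count of falls 1 without MLN replicate 1 or MLN replicate 2. BPEp, a bHLH factor known to limit petal size, had 95.9, 131 and 180.3 in MLN, against 623, 687 and 617 in ILN (log2 difference -2.29, standard error 0.25, limma adjusted p = 0.000101). BZIP9, read by a probe set that may also match related transcripts, had 1422, 2667 and 2064 in MLN, against 463, 719 and 551 in ILN (log2 difference 1.81, standard error 0.25, limma adjusted p = 0.000473). For the first of these every MLN array lay below every ILN array, and for the second above. AP2, a regulator of floral organ identity, had 2232, 2861 and 2444 in MLN, against 940.4, 1126 and 867 in ILN (log2 difference 1.36, standard error 0.20, limma adjusted p = 0.000619). HAM4, a GRAS factor of meristem maintenance, had 1099.8, 1269 and 960.4 in MLN, against 106, 229 and 172 in ILN (log2 difference 2.77, standard error 0.28, limma adjusted p = 6.5e-05), and it was the only one called of 7 GRAS genes, or one of 2 without ILN replicate 1. WRKY22, of the defence response, was lower, with 67.7, 84.3 and 127 in MLN, against 438, 579.7 and 312 in ILN (log2 difference -2.26, standard error 0.28, limma adjusted p = 0.000229).

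Cell wall genes contained rises and falls within single families. Of 14 pectin enzymes 6 were higher and 2 lower. AT1G57590, annotated as a pectin acetylesterase, had 683, 547 and 469 in MLN, against 87.5, 67.8 and 63.6 in ILN (log2 difference 2.95, standard error 0.23, limma adjusted p = 1.31e-05), whereas the pectinesterase gene AT2G26440 had 71.5, 55.8 and 79.0 in MLN, against 921, 1324 and 1392 in ILN (log2 difference -4.13, standard error 0.23, limma adjusted p = 1.56e-06). XTH30, an enzyme that cuts and joins xyloglucan, had 1929, 1306 and 1242 in MLN, against 404, 266 and 164 in ILN (log2 difference 2.49, standard error 0.30, limma adjusted p = 0.000175), and EXPA15, an expansin that loosens walls, had 174, 163 and 153 in MLN, against 490.0, 876 and 1419 in ILN (log2 difference -2.38, standard error 0.32, limma adjusted p = 0.000348). It was the only expansin of 19 called lower, or one of 2 without MLN replicate 2 or ILN replicate 1 or with the replicate number as a block or with centring, and 17 of the 19 were below the median signal of all probe sets. Of 25 TRICHOME BIREFRINGENCE-LIKE proteins, several of which acetylate wall polymers, 4 were lower and none higher. The count of falls was 2 without ILN replicate 2, and the count of rises 1 without MLN replicate 1, MLN replicate 3 or ILN replicate 2, 2 with the replicate number as a block and 3 without ILN replicate 1. TBL39 had 992, 1271 and 1957 in MLN, against 6162, 5174 and 4209.8 in ILN (log2 difference -1.92, standard error 0.25, limma adjusted p = 0.000283). Of 15 genes of cellulose and callose synthesis 3 were higher and none lower, or 5 without MLN replicate 3 or with the replicate number as a block, with COBL2 at 373, 296 and 287 in MLN, against 94.5, 122 and 133 in ILN (log2 difference 1.46, standard error 0.21, limma adjusted p = 0.000487).

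Among lipid genes, GDSL lipases and the sterol pathway were called lower more often than higher. Of 7 GDSL lipases 4 were lower and 1 higher. CDEF1, annotated as a GDSL lipase, was named only by the study's lists and left out of the group (log2 difference 5.88). AT1G75900, annotated as extracellular lipase 3, had 97.3, 79.4 and 65.1 in MLN, against 1261, 2510.3 and 2964 in ILN (log2 difference -4.73, standard error 0.30, limma adjusted p = 3.19e-06), and AT5G45950 had 7644, 7537 and 7904 in MLN, against 1269.5, 1947 and 1313 in ILN (log2 difference 2.38, standard error 0.19, limma adjusted p = 1.5e-05). Of 6 sterol pathway genes 2 were lower, FPS2, a farnesyl diphosphate synthase, with 83.4, 65.8 and 86.2 in MLN, against 295, 311 and 322 in ILN (log2 difference -1.99, standard error 0.19, limma adjusted p = 4.69e-05) and MK, mevalonate kinase (-1.24, limma adjusted p = 0.00132). PMEAMT, which methylates phosphoethanolamine on the way to choline lipids, had 695, 711 and 568 in MLN, against 1547, 3557 and 2912 in ILN (log2 difference -1.95, standard error 0.27, limma adjusted p = 0.000453). SHN3, an activator of wax and cutin genes, was lower (-1.49, limma adjusted p = 0.00582). None of 5 genes of plastid fatty acid synthesis was called by limma, but the count of falls was 1 without MLN replicate 3 or with the replicate number as a block or with centring. The lowest log2 difference, -0.58, was the same in this group and the TCA cycle group, so the fall in both may be of the same gene.

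Of 52 UDP-glycosyltransferases, which attach sugars to small molecules, 9 were higher and 1 lower, against 11.3% higher and 11.1% lower among all named genes, and 38 of them were below the median signal of all probe sets. UGT72E2, which acts on lignin precursors, had 777, 501 and 501 in MLN, against 135, 152 and 122 in ILN (log2 difference 2.09, standard error 0.25, limma adjusted p = 0.000156), and UGT78D2, which acts on flavonoids, had 476, 632 and 397 in MLN, against 98.2, 129 and 169 in ILN (log2 difference 1.93, standard error 0.25, limma adjusted p = 0.000291). UGT74D1 was the fall (-2.52, limma adjusted p = 0.000692), one of 3 without ILN replicate 1. HCT and CYP98A3, consecutive enzymes of lignin precursor synthesis, were the 2 called of 8 genes in that group, both higher (1.26, limma adjusted p = 0.00484 and 1.60, limma adjusted p = 0.000728). CYP98A3 had 641, 418 and 794 in MLN, against 216, 171 and 205 in ILN. BGLU28, a beta-glucosidase, had 913, 324 and 578 in MLN, against 51.5, 27.8 and 25.4 in ILN (log2 difference 4.07, standard error 0.42, limma adjusted p = 6.91e-05). Among 14 glutathione transferases 3 were higher and 2 lower. Rises numbered 1 without MLN replicate 1, MLN replicate 2 or ILN replicate 2 or with centring, and the count of falls 1 without ILN replicate 3. GSTU18 had 1843, 2149 and 1252 in MLN, against 431, 791 and 665 in ILN (log2 difference 1.48, standard error 0.26, limma adjusted p = 0.00189). Of 20 antioxidant enzymes 5 were lower and 1 higher, with a count of falls of 3 without ILN replicate 3, and the count of rises 2 without ILN replicate 1. TAPX, the thylakoid ascorbate peroxidase, had 252, 267 and 161 in MLN, against 482, 587 and 554 in ILN (log2 difference -1.29, standard error 0.22, limma adjusted p = 0.00167).

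The measured leucine-rich repeat kinases and RALF peptides were called lower more often than higher. Of 12 leucine-rich repeat kinases 4 were lower and 2 higher. AT2G02780 had 162, 140.3 and 120.1 in MLN, against 963, 948 and 557 in ILN (log2 difference -2.51, standard error 0.30, limma adjusted p = 0.000163), and AT1G67720 had 35.9, 53.1 and 131 in MLN, against 353, 709.5 and 1011 in ILN (log2 difference -3.33, standard error 0.47, limma adjusted p = 0.000462). EFR, the receptor of bacterial elongation factor Tu, was higher (1.34, limma adjusted p = 0.00207). Of 11 RALF peptides, small secreted signals of growth, 3 were lower and none higher, with a count of rises of 1 without ILN replicate 2. RALFL22 had 342, 315 and 250.3 in MLN, against 1135, 1023 and 789 in ILN (log2 difference -1.70, standard error 0.23, limma adjusted p = 0.000376). Among 35 calcium sensors and kinases 4 were higher and 4 lower. The count of rises was 2 without MLN replicate 1 or ILN replicate 3, and the count of falls 1 without MLN replicate 1. IQD23, a calmodulin-binding protein, had 581, 473 and 566 in MLN, against 178, 187 and 188 in ILN (log2 difference 1.55, standard error 0.19, limma adjusted p = 0.000204), and ANNAT2, an annexin, had 90.4, 86.7 and 110.0 in MLN, against 258, 301 and 416 in ILN (log2 difference -1.74, standard error 0.22, limma adjusted p = 0.000252).

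Some of the genes outside these groups with small adjusted p are given here. AT1G20070 had 2164, 2765 and 1943 in MLN, against 53.2, 45.8 and 61.8 in ILN (log2 difference 5.41, standard error 0.19, limma adjusted p = 9.62e-08). AT1G35190, annotated as a 2-oxoglutarate and iron-dependent oxygenase, had 3281, 2325 and 2702 in MLN, against 60.4, 43.3 and 29.7 in ILN (log2 difference 6.01, standard error 0.25, limma adjusted p = 2.87e-07). AIR12, named for its induction by auxin in root cultures and listed by the study from these arrays, had 43.8, 57.2 and 64.9 in MLN, against 1677, 1908 and 2909 in ILN (log2 difference -5.27, standard error 0.30, limma adjusted p = 1.7e-06). PPa6, annotated as an inorganic pyrophosphatase and also listed by the study, had 84.0, 72.3 and 79.1 in MLN, against 759, 1399 and 1430.1 in ILN (log2 difference -3.88, standard error 0.26, limma adjusted p = 5.03e-06). The groups lay far apart in all of these. AT1G48330, annotated only as an expressed protein, was lower, with 44.2, 50.4 and 54.8 in MLN, against 815, 554 and 495 in ILN (log2 difference -3.61, standard error 0.23, limma adjusted p = 3.48e-06). Only 7 named genes had a signal under 50 on every ILN array and over 500 on every MLN array, and none had the opposite pattern. The 7 are scpl41, NAC080, CYP71B31, CDEF1, NHL1, GA2OX6 and VSR6. Of these, NAC080, a transcription factor of the NAC family, had 859, 1819 and 613 in MLN, against 41.8, 25.9 and 17.5 in ILN (log2 difference 5.21, standard error 0.40, limma adjusted p = 9.94e-06), and NHL1, of a family related to NDR1 of disease resistance, had 638, 699 and 529.6 in MLN, against 46.5, 46.8 and 43.2 in ILN (log2 difference 3.76, standard error 0.19, limma adjusted p = 1.19e-06). Both were chosen after their values had been seen.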

How the data were processed

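RNA of lateral and median nectaries was measured on 8 single-colour ATH1 arrays. The deposited values are linear signal intensities, which the authors obtained in Genedata Expressionist: Refiner for RMA and quantile normalization, run with public arrays as a reference, and Analyst for scaling each array to a median of 100. Their versions were not given in the sources used here. Because that scaling fixes the median of every array, a change shared by most transcripts cannot be measured, and amplification from small RNA amounts adds to the spread.

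The log2 signals were fitted with limma 3.58.1 in R 4.3.3 (lmFit, then eBayes with a variance trend), with 1 mean for each nectary type over all 8 arrays and the contrast MLN minus ILN. Tests were two-sided with Benjamini-Hochberg adjustment over 22746 probe sets, and a probe set was called at an adjusted p under 0.05. Depth does not apply to arrays, and 3 arrays a group limit the precision. The fit was tested on simulated data.

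The platform annotation gave 1 gene for 13513 probe sets, several for 503 and none for 8730. The gene annotation supplied with the study named 556 more, and its own lists 242 more, used only as single genes. For genes with several probe sets the one with the highest mean log2 signal was taken. Groups were matched by symbol, synonym or annotation text. From each group of 3 or more measured members, up to 2 called genes with the largest rise and up to 2 with the largest fall could be named, and outside the groups the 5 genes with the smallest adjusted p in each direction. Measured nectary genes and called marker genes were named too. The members and the groups were chosen with earlier results of these data known.

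Same-numbered MLN and ILN arrays deviated weakly together from their group means (correlations 0.338, 0.241 and 0.211, against -0.300 to 0.0160 for other pairs). Whether the numbers pair the samples was not tested, and the labels do not say what a number shares. The main fit used no block. The alternatives were the 6 lateral arrays alone, the replicate number as a block, an offset of 16, a new quantile normalization, no variance trend, only probe sets above the median mean signal, each array left out, an equal-variance t-test, every probe set of a gene, first symbols only and, added after seeing the data, centring on the median difference. Figures were drawn with matplotlib 3.10.9. Promoter sequences were not analysed here.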

Additional observations from a re-analysis of the deposited data

How the results depend on the processing

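An equal-variance t-test, the type of test the study names, was run on linear signals of all probe sets with Benjamini-Hochberg adjustment. The study itself adjusted by the method of Storey and Tibshirani and kept genes called present, so the counts below are not its own. The t-test run here called 773 probe sets at any fold (457 higher and 316 lower in MLN), 487 at 2-fold (268 and 219) and 96 at 5-fold (70 and 26). It called 7.60% of the brightest decile, against 41.0% in the limma fit. It was applied to these totals and the signal deciles only, not to groups or single genes. Centring on the median difference, chosen after seeing the data, called 1711 probe sets higher at any fold, against 2738. With 1 lateral array left out, 3566 to 6786 probe sets were called at any fold, 1680 to 3745 of them higher, and 135 to 312 were lower at 5-fold. The lowest total and the fewest rises at any fold came without ILN replicate 3, followed for both by ILN replicate 2 (3650 calls, 1815 of them higher). The fewest falls at any fold, 1835, came without ILN replicate 2, and the highest 5-fold fall count without ILN replicate 1. The cause was not tested. The other totals stayed within 1.5-fold in every alternative run, among them 6317 calls at any fold and 2756 at 2-fold with the replicate number as a block. Beyond the group counts given with the results, the block changed no call of a gene named as called.

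Centring lowered the count of rises by more than 1.5-fold in several groups, among them autophagy (3 of 11), U-box (3 of 13) and F-box proteins (1 of 14), cytokinin (1 of 13), ethylene (1 of 7) and AP2/ERF genes (2 of 16), and the other such counts stand with the groups. The median log2 difference of all probe sets was 0.17, and 0.03 with centring and 0.05 with the new quantile normalization. Of the calls on genes named by the rule, 22 were lost with centring, 12 with the 6 lateral arrays alone and 14 to 41 with 1 array left out, and none reversed. The promoter motif comparison was not run. Signals near the bottom of the range limit what can be said of dim genes, such as most MADS genes and expansins.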
